A study of Aspergillus aculeatus with 24 samples.

Results

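The comparison described here set day 6 against day 3 of the Aspergillus aculeatus strain HUT2365 grown on wheat bran and soybean. Its members were chosen by label, as every library of that strain in that medium, which gave 4 of the 24 RNA-seq libraries: replicates A and B of day 3 and replicates A and B of day 6. The series also holds HUT2365 in glucose, and the strains BCC199 and BCC56535 in both media, on the same days and with 2 libraries in each of the 12 groups. The labels name strains that differ in their ability to degrade plant biomass, and describe glucose as the control and wheat bran-soybean as the medium that induces cellulases. No deletion, transgene or added agent is given for any group. Nothing in the labels says that A and B came from separate cultures, so each p-value rests on a spread between libraries that may be technical. RNA came from whole mycelium, in which fewer cells of a kind and less RNA per cell cannot be told apart.

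A. aculeatus belongs to the black aspergilli and is known for secreted enzymes that open plant cell walls. Wheat bran supplies cellulose and arabinoxylan, and soybean supplies protein and pectin-rich cell walls. In aspergilli, sugars released from such polymers switch on genes of cellulases and hemicellulases through activators such as XlnR, while glucose holds many of these genes down through the repressor CreA. A culture that grows for several days on plant material meets a changing mixture of polymers, released sugars and nitrogen sources. None of these roles could be placed on a gene here. The deposited table names genes only by IDs such as acu02321_1, and 0 of its 8615 IDs matched the 11152 genes of the reference table, so the results below are given by ID, level and direction.

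The values are normalized read counts. The reads recovered from them came to 26865539 and 19248977 for day 3 A and B. For day 6 A and B they came to 21888840 and 26088445. Day 3 B had the fewest reads of all 24 libraries, which held 19248977 to 30003709. It also had the highest normalized total of the 24, 28742645, and its top ID held the largest share of normalized reads, 1.32%. The replicates of day 3 lay far apart. The root-mean-square difference of log2 values over 8509 IDs was 0.831 between day 3 A and B, 0.522 between day 6 A and B, and 0.831, 0.852, 0.911 and 0.899 between libraries of different days. Day 3 A was thus as far from day 3 B as from day 6 A, and the SD of the replicate log2 difference was 0.82 on day 3 and 0.52 on day 6, against 0.33 to 0.80 in the 10 other groups. By the number of IDs over 2-fold apart, 996, the day 3 pair came after 3 of the other groups, which had 1074 to 1117. By comparison, libraries in wheat bran-soybean lay 1.56 to 1.76 from those of the same strain in glucose, and the 4 glucose libraries lay 0.323 to 0.488 from each other.

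The difference within day 3 ran mostly one way. In day 3 B, 246 IDs were at least 4-fold above day 3 A, while 16 were at least 4-fold below it. At over 2-fold the counts were 685 above and 311 below, against 223 and 211 for the same comparison of day 6 B with day 6 A. The 246 IDs had a median log2 value of 4.51 in day 3 A and 8.08 in day 3 B. Both day 6 libraries, at 5.94 and 5.53, and HUT2365 in glucose, at 5.40, lay between. In the comparison of days 7 of the 246 were called, beside 8.77% of all IDs tested, and the wide gap between replicates that chose these IDs itself makes a call unlikely. What set day 3 B apart was not tested, and the counts of changed IDs below are also given without each library.

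**Figure D1:**
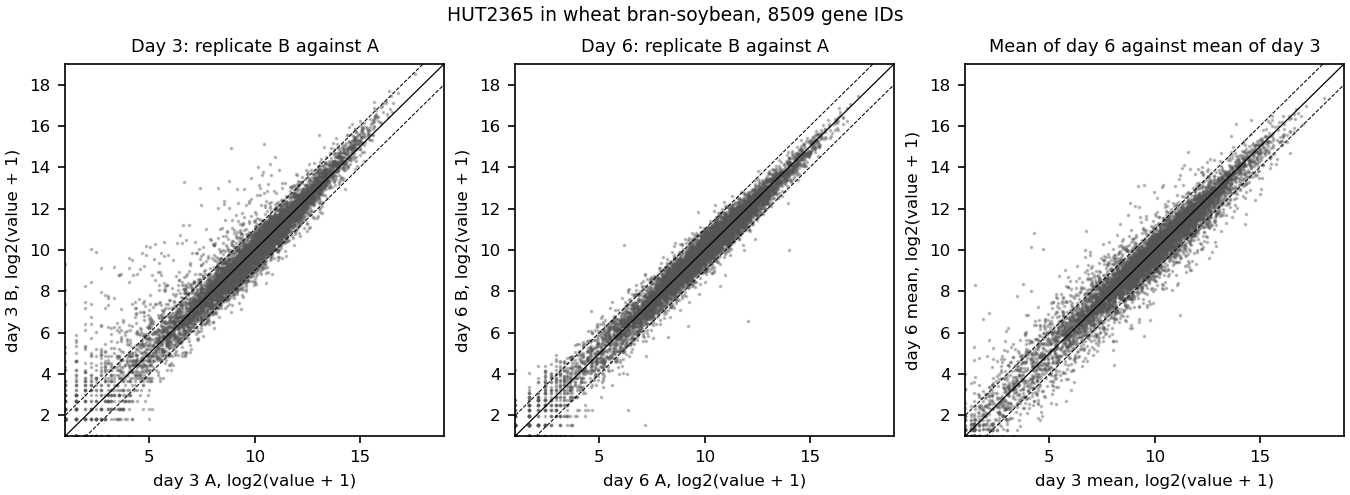
Each point is 1 of 8509 gene IDs, with log2(deposited value + 1) of one library or day mean on each axis, the solid line marking equality and the dashed lines a 2-fold difference. The day 3 panel has a cloud of IDs above the upper dashed line, 685 in all against 311 below the lower one, which the day 6 panel does not have.

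From day 3 to day 6, 346 of the 8509 tested IDs rose in this medium and 400 fell (limma, Benjamini-Hochberg adjusted p under 0.05). These were 4.07% and 4.7% of the IDs tested, 8.77% in all. The median log2 change was 1.34 among the risen IDs, with a range of 0.48 to 6.87, and -1.20 among the fallen, with a range of -0.50 to -4.37. A rise of at least 4-fold was measured for 93 IDs and a fall of that size for 53. At 16-fold the counts were 9 risen and 1 fallen, so the largest changes were mostly rises. Changes smaller than 2-fold made up 110 of the risen and 128 of the fallen IDs.

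Risen IDs came from lower levels than fallen ones. The median level of the 346 risen IDs was 364 normalized reads on day 3 and 947 on day 6, and that of the 400 fallen IDs was 2405 on day 3 and 1008 on day 6, beside 909 and 869 over all IDs tested. The risen IDs took 2.08% and 1.78% of normalized reads in day 3 A and B, and 5.40% and 5.10% in day 6 A and B. The fallen IDs took 9.35% and 8.83% on day 3, and 4.20% and 4.17% on day 6. The fallen IDs held the larger share of reads on day 3 and the smaller on day 6, in every library. Both sets were chosen by their change between these libraries. The gain in share of the risen IDs and the loss of the fallen follow from that choice, which also bears on the day 3 medians.

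When the IDs were split into 4 equal groups by mean level, the share that rose went from 5.17% in the lowest group through 4.56% and 3.29% to 3.24% in the highest. The share that fell went the other way, from 2.49% through 4.09% and 5.36% to 6.86%. The median standard error of the log2 change was 0.49 in the lowest group and 0.24 in the highest, and the replicate SD on day 3 was 1.24 and 0.54, so low IDs needed a larger change to be called.

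**Figure D2:**
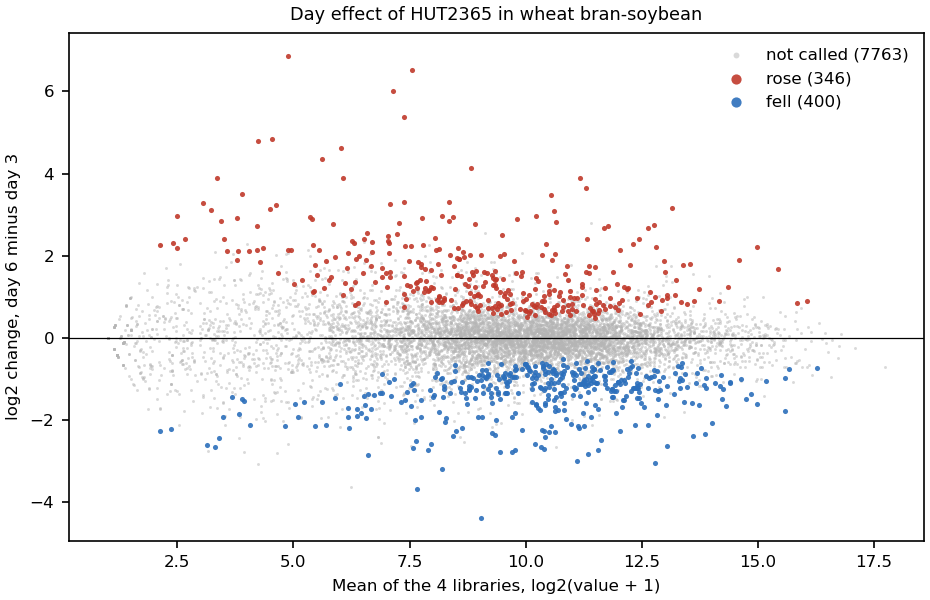
Each point is 1 of 8509 gene IDs, with its mean log2(deposited value + 1) over the 4 libraries on the x axis and its log2 change from day 3 to day 6 on the y axis, red for the 346 that rose, blue for the 400 that fell and grey for the rest. The largest changes are rises of IDs at low mean levels, and the blue points lie further to the right than the red ones.

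The separation of the days depended on both replicates. The days did not overlap for 4018 of all 8509 IDs, which is 47.2%, and for 346 of the 346 risen and 399 of the 400 fallen IDs. The gap between the days was wider than the larger of both replicate differences for 280 of the risen and 284 of the fallen IDs. Of all IDs this held for 1588, or 18.7%. The called IDs were chosen by a test on these same libraries, so their counts are a description and no separate support. A further 568 IDs moved at least 2-fold in their means without being called, 246 up and 322 down, and in 109 of them the days overlapped. At an unadjusted p under 0.05 there were 2027 IDs.

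These counts took the spread from all 12 groups. With the 4 libraries alone limma called 0 IDs, with 1397 at an unadjusted p under 0.05 and a lowest adjusted p of 0.070. With array weights it called 98 risen and 103 fallen. These weights took 1 value per group, 0.46 on day 3 and 0.69 on day 6, so replicates A and B were weighted alike. Without day 6 A the count was 335 and without day 6 B it was 281, while without day 3 B it was 597 and without day 3 A it was 599, made up of 216 risen and 383 fallen IDs. Of these, 285 of the 335, 256 of the 281, 417 of the 597 and 366 of the 599 were also among the 746. In these fits the lone library was taken to vary like the other groups. A core of 65 risen and 59 fallen IDs was called in each of the 12 other fits that covered all groups. Rescaling the libraries to equal totals raised the median log2 change of all IDs by 0.11 and turned the split to 403 risen and 255 fallen, so the balance of rises against falls depends on the scaling.

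**Figure D3:**
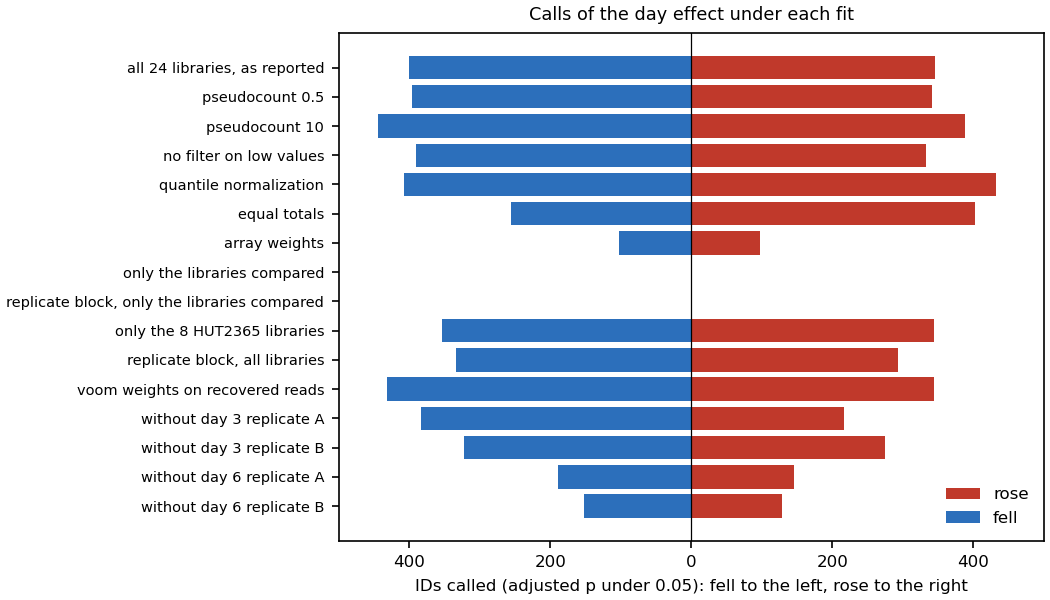
Bars show how many gene IDs limma called as risen (right, red) or fallen (left, blue) in HUT2365 in wheat bran-soybean under each fit, as counts from 0. The fit of only the 4 libraries compared called 0 IDs, with or without a replicate block, and fits without a day 6 library called fewer than those without a day 3 library.

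No more than a few IDs are named below, chosen by rule for size of change and for level. The largest rise was that of acu04792_1. It had 1.76 and 0 normalized reads on day 3 and 390.3 and 259.6 on day 6, or 2 and 635 reads in all. It was close to absent from both day 3 libraries and clearly present in both day 6 libraries. The ratio was 287, with an exact 95% interval of 79.2 to 2377 that covers counting error only, and the log2 change was 6.87 with a standard error of 0.72 (limma, adjusted p = 4.9e-05). In glucose the same strain had 2632 and 1534 on day 3 and 2238 and 3130 on day 6, so its day 6 level in wheat bran-soybean was still below every glucose library. In the other strains it stayed at or below 24.7 in every library.

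The ID acu02321_1 had 20.3 and 14.9 normalized reads on day 3 and 1881 and 1719 on day 6. The replicates of each day lay close together and the days were far apart, with a log2 change of 6.53 and a standard error of 0.63 (limma, adjusted p = 2.2e-05). Its glucose libraries held 567 to 1041, above the day 3 level and below the day 6 level. The strains differed here. In wheat bran-soybean, BCC199 had 7.22 and 5.61 on day 3 and 69.1 and 158 on day 6, while BCC56535 had 0 in all 4 libraries.

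The largest fall was that of acu00168_3, with 2725 and 2068 normalized reads on day 3 and 130.1 and 97.8 on day 6. Both day 3 libraries stood far above both day 6 libraries. The log2 change was -4.37 with a standard error of 0.31 (limma, adjusted p = 1.3e-06). In the 20 libraries outside this comparison it lay between 28.9 and 157, so HUT2365 on day 3 in wheat bran-soybean was the group with high values, and the day 6 level fell within the range of all other libraries.

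The ID acu07198_1 had 785 and 663 normalized reads on day 3 and 73.4 and 41.1 on day 6. The days did not overlap, and the log2 change was -3.67 with a standard error of 0.61 (limma, adjusted p = 0.0020). Unlike the preceding ID, it was lower on day 6 in the other strains too. BCC199 went from 3659 and 3328 to 69.1 and 26.9, and BCC56535 from 289.9 and 384 to 38.2 and 50.9. HUT2365 in glucose held at most 1.86 in any library, so the high level belonged to wheat bran-soybean and to day 3 in each strain.

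Among IDs with very high levels the changes were smaller. The risen ID with the highest level, acu02589_1, had 50122 and 49304 normalized reads on day 3 and 98719 and 88065 on day 6. All glucose libraries of the strain lay near the day 3 level, at 50814 to 55307. The log2 change was 0.91 with a standard error of 0.26 (limma, adjusted p = 0.042). The ID acu00387_1 rose from 21913 and 28124 to 75838 and 83499, with a log2 change of 1.68 and a standard error of 0.36 (limma, adjusted p = 0.0090), and its glucose libraries held 8503 to 11936. In wheat bran-soybean BCC199 had 7779 and 7685 on day 3 and 63962 and 79040.4 on day 6, and BCC56535 had 9630 and 4686 and then 33596 and 25387, so all 3 strains were higher on day 6.

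Of the fallen IDs with the highest levels, acu02961_1 had 87811 and 116597 on day 3 and 64692 and 57319 on day 6, with a log2 change of -0.73 and a standard error of 0.21 (limma, adjusted p = 0.041). Both day 3 libraries were above both day 6 libraries, with day 3 B the highest. The ID acu03088_1 had 65339 and 124327 on day 3 and 23346 and 29876 on day 6, with a log2 change of -1.77 and a standard error of 0.38 (limma, adjusted p = 0.0090). Day 3 B was again the highest library and the days did not overlap. The other strains did not all move the same way. For acu02961_1 BCC199 rose in wheat bran-soybean, by 1.18 on the log2 scale (limma, adjusted p = 0.0010), and the log2 change in BCC56535 was 0.31 (adjusted p = 0.27). For acu03088_1 the log2 change in BCC199 was 0.18 (adjusted p = 0.83), and BCC56535 fell by 1.54 on that scale (adjusted p = 0.0043). Each of these 4 abundant IDs lost its call in some fits, and leaving out 1 library was enough for each. In limma the adjusted p was 0.11 to 0.16 for acu02589_1 without any one of the 4 libraries. It was 0.088 to 0.20 for acu02961_1 without day 3 B, day 6 A or day 6 B, 0.054 and 0.063 for acu00387_1 without day 3 A or day 6 B, and 0.071 and 0.077 for acu03088_1 without day 6 A or day 3 B.

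**Figure D4:**
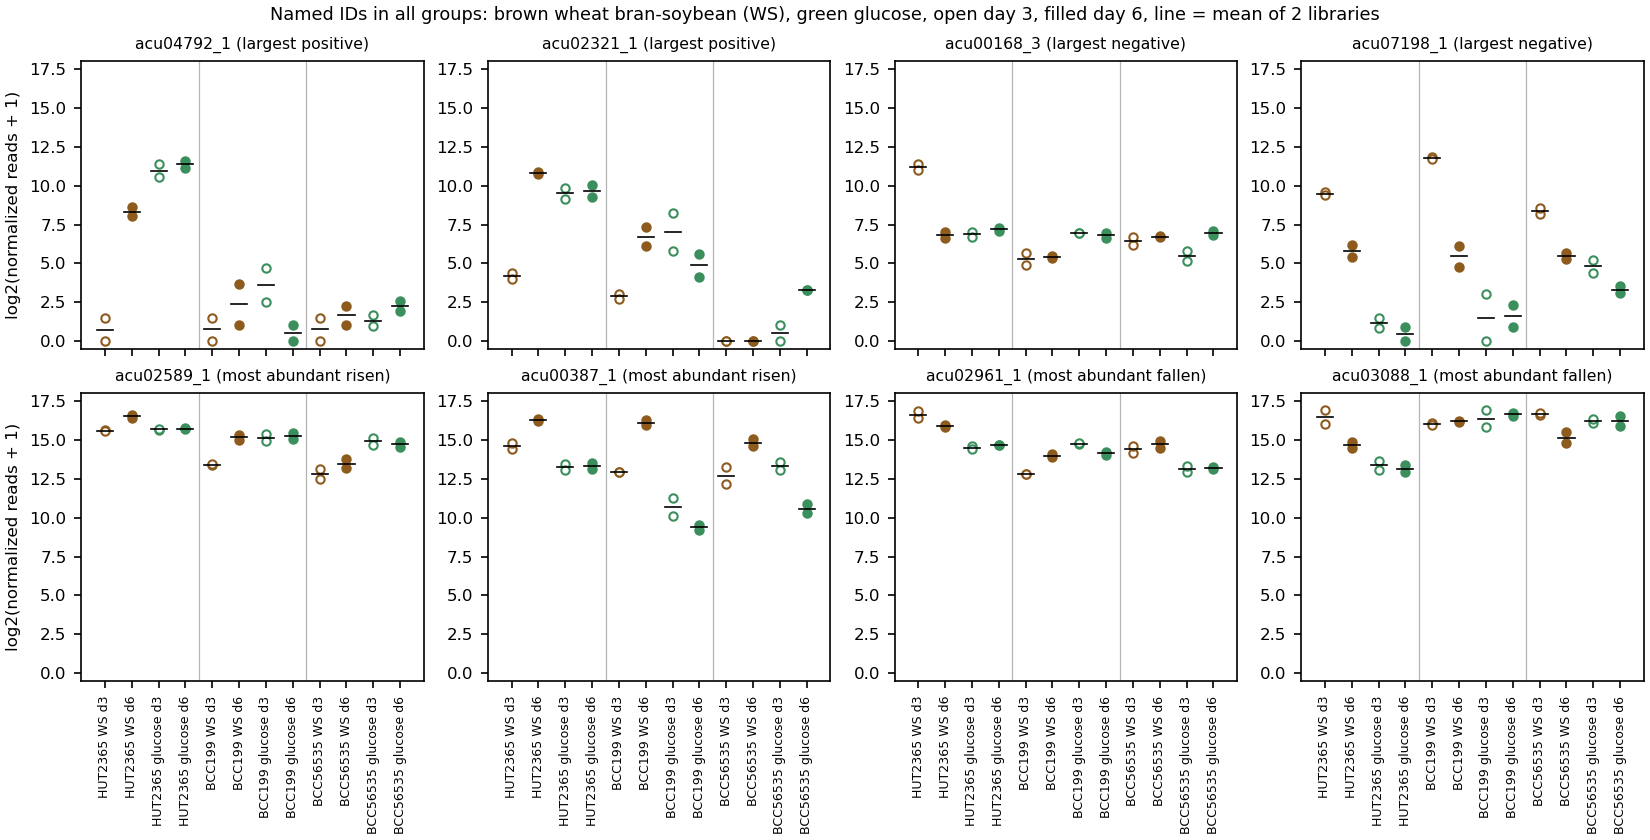
Each panel shows log2(normalized reads + 1) of 1 named gene ID in the 24 libraries, by strain, medium and day (brown wheat bran-soybean, green glucose, open day 3, filled day 6), with a line at the mean of 2 libraries. The upper row holds the largest changes, with log2 changes in HUT2365 in wheat bran-soybean from -4.37 to 6.87. The lower row holds the abundant IDs, from -1.77 to 1.68. These changes are those of the fit, on log2(deposited value + 1), so groups of few reads lie further from the others in the panels.

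Most of the 100 most abundant IDs of each day were shared by both days. One ID had the highest level in all 4 libraries, and 75 IDs were among the 100 highest on both days. Of the 125 IDs in the top 100 of either day, 6 rose and 10 fell, or 12.8%, beside 8.77% of all IDs tested. An ID could enter this set through its higher day alone. That choice favours changed IDs, so the share is a description. The top 100 held 22.9% and 28.6% of normalized reads in day 3 A and B and 24.3% and 24.8% in day 6 A and B, with day 3 B the highest. At the other end, 38 IDs had 0 reads in both day 3 libraries and at least 1 read on day 6, 57 had the reverse, and 3 of these were called. The most reads that any of them had on the other day were 34 on day 6 and 15 on day 3.

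The same strain in glucose gave almost no comparison to set beside this. There, 3 IDs changed between the days, 0.0353% of those tested, all of them lower on day 6. Of the 346 IDs that rose in wheat bran-soybean, 54.6% were higher on day 6 in glucose, and of the 400 that fell, 40.0% were lower there, while over all IDs 54.6% were higher and 44.8% lower. The median log2 change in glucose was 0.03 for the risen IDs, 0.04 for the fallen and 0.03 for all. In glucose, both sets thus had medians close to that of all IDs.

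The difference between the media in the day effect was itself tested. It passed the threshold for 68 IDs (limma, adjusted p under 0.05), 0.799% of those tested, 40 with a change more positive in wheat bran-soybean and 28 with one more negative. The calls in each medium enter this difference, and they were 8.77% of all IDs in wheat bran-soybean and 0.0353% in glucose. The split that follows is therefore a description. Of these 68, 67 had a called change on wheat bran-soybean and 1 had one in glucose. The count was 8 to 25 without any one of the 4 glucose libraries, 28 without day 6 A and 33 without day 6 B of wheat bran-soybean. The remaining called IDs are not shown to differ between media, since the difference carries the error of 8 libraries. Beside acu04792_1, acu02321_1 and acu00168_3, the rule named acu00135_3, which had 3590 and 3313 normalized reads on day 3 and 582 and 482 on day 6 in wheat bran-soybean, against 2929 and 4248 and then 5222 and 3505 in glucose. Within HUT2365 it was low in both day 6 libraries of wheat bran-soybean and in no glucose library. The difference of log2 changes was -2.98 with a standard error of 0.42 (limma, adjusted p = 0.0029). Glucose libraries of BCC199 held 371 to 595. In wheat bran-soybean the log2 change of this ID was also negative in BCC199, at -3.61 (limma, adjusted p = 8.3e-07), and in BCC56535, at -1.02 (adjusted p = 0.013).

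Set against the mean level of the strain in glucose, the risen IDs moved from a median of -0.48 log2 units on day 3 to 0.70 on day 6. The fallen IDs moved from 0.86 to -0.32. Over all IDs with a higher mean on day 6 the medians were -0.30 and 0.09, and over all with a lower mean 0.30 and -0.09. All these sets were chosen by the same wheat bran-soybean values, so a move in the chosen direction was built in. The glucose mean lay between the days for 141 risen and 144 fallen IDs, below both days for 109 and 167, and above both for 96 and 89. As shares, the glucose mean lay between the days for 40.8%, below both for 31.5% and above both for 27.7% of the risen IDs, and for 36.0%, 41.8% and 22.3% of the fallen. Of all IDs with a higher mean on day 6 the shares were 16.2%, 37.6% and 46.1%, and of all with a lower mean 17.3%, 46.3% and 36.4%. A large change leaves more room for the glucose level between the days. Of the risen IDs with values given here, acu04792_1 ended below its glucose libraries, and acu02321_1, acu02589_1, acu00387_1 and acu04461_1 ended above theirs. The last went from 12.3 and 19.4 normalized reads to 1146 and 1129 while its glucose libraries held 18.4 to 55.0.

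The response to the medium in the other strains gave 2 lists whose contrasts held no HUT2365 library, although all 24 libraries set the spread behind their calls. They held 375 IDs called higher and 364 called lower in wheat bran-soybean than in glucose in both BCC199 and BCC56535 on both days. Of the 375, 36 rose in HUT2365 between day 3 and day 6, or 9.6% beside 4.07% of all IDs, and 21 fell, or 5.6% beside 4.7%. Of the 364, 9 rose, or 2.47%, and 36 fell, or 9.89%. The median log2 change was 0.19 for the first list, -0.21 for the second and -0.01 over all IDs. In glucose the median change of HUT2365 was 0.09 for the first list, 0.03 for the second and 0.03 over all IDs. Set against glucose of the same day, the first list had a median of 1.23 on day 3 and 1.35 on day 6. The second had -1.06 and -1.15. The counts were as low as 17 risen IDs in the first list without day 6 A and 12 fallen in the second without day 6 B.

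In terms of reads, the first list took 7.91% and 7.20% of normalized reads in day 3 A and B and 9.70% and 9.09% in day 6 A and B of HUT2365, against 2.80% to 3.05% in its glucose libraries. The second took 2.50% and 2.68% and then 2.01% and 2.06%, against 9.99% to 10.1% in glucose. Both lists were thus further from the glucose level on day 6 than on day 3, in each library. On day 3, 232 of the 375 IDs were already called higher in wheat bran-soybean than in glucose in HUT2365, and on day 6 it was 246, beside 25.3% and 22% of all IDs tested. In the strains that defined the lists, the median log2 change of the first between the days was -0.12 in BCC199 and -0.30 in BCC56535. That of the second was 0.29 in BCC199 and -0.12 in BCC56535. The lists were chosen on these strains at both days and their changes there are a description.

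In wheat bran-soybean the other strains had more called IDs between the days than HUT2365. BCC199 had 682 risen and 466 fallen IDs, 8.02% and 5.48% of those tested and 13.5% in all. BCC56535 had 1507 and 1663, 17.7% and 19.5%, and 37.3% in all. These comparisons share no library with that of HUT2365, but they share the estimate of spread.

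Risen IDs of HUT2365 were read in both other strains. In BCC199, 73.1% of the 346 were higher on day 6 and 100 were called as risen, with a median log2 change of 0.45. In BCC56535, 66.5% were higher and 143 were called as risen, with a median of 0.52. The 100 shared IDs were 28.9% of the HUT2365 list and 14.7% of that of BCC199, and the 143 were 41.3% and 9.49%. Calls in the opposite direction were 16 in BCC199 and 41 in BCC56535, or 4.62% and 11.8% of the 346. Over all IDs, 49.0% were higher on day 6 in each of these strains, 8.02% were called as risen and 5.48% as fallen in BCC199, and 17.7% and 19.5% in BCC56535.

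Fallen IDs were read in the same way. In BCC56535, 83.0% of the 400 were lower on day 6 and 238 were called as fallen, with a median of -0.92, beside 50.8% lower, 19.5% called as fallen and a median of -0.01 over all IDs. In BCC199, 55.0% were lower and 59 were called as fallen, with a median of -0.08, beside 50.6% lower, 5.48% called as fallen and a median of -0.0040 over all IDs. The 238 shared IDs were 59.5% of the HUT2365 list and 14.3% of that of BCC56535, and the 59 were 14.8% and 12.7%. Another 30, or 7.5%, were called as risen in BCC199 and 17, or 4.25%, in BCC56535, beside 8.02% and 17.7% of all IDs. Across all 8509 IDs, which are not independent and share the normalization, the log2 changes of HUT2365 correlated with those of BCC56535 at r = 0.309, of BCC199 at r = 0.22 and of HUT2365 in glucose at r = 0.041.

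**Figure D5:**
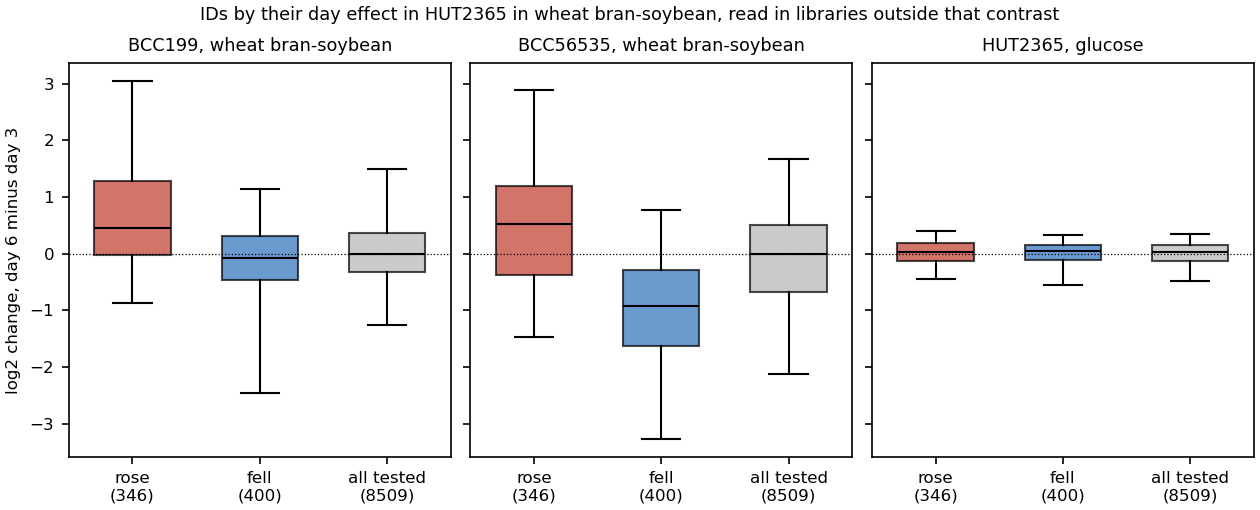
Boxes show the log2 change from day 3 to day 6 in BCC199 and BCC56535 in wheat bran-soybean and in HUT2365 in glucose (median, quartiles, whiskers at 5% and 95%) for the IDs that rose or fell in HUT2365 in wheat bran-soybean and for all IDs tested. The risen IDs have medians of 0.45 and 0.52 in the other strains, the fallen IDs have -0.08 in BCC199 and -0.92 in BCC56535, and all medians in glucose lie within 0.04 of 0.

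The difference in day effect between strains was tested for each pair. Against BCC199 it passed for 712 IDs (limma, adjusted p under 0.05), 8.37% of those tested, 292 more positive in HUT2365 and 420 more negative. Of the 712, 180 were called in HUT2365 alone, 371 in BCC199 alone, 67 in both, of which 46 in opposite directions, and 94 in neither. Without any one of the 4 libraries of BCC199 the count was 283 to 366, and without day 6 B of HUT2365 it was 378. Against BCC56535 it passed for 1251 IDs, 14.7%, 689 more positive and 562 more negative. Of these, 121 were called in HUT2365 alone, 960 in BCC56535 alone, 104 in both, of which 58 in opposite directions, and 66 in neither. Most of the tested differences were thus at IDs that were called in the other strain and not in HUT2365. The calls of both strains enter these differences. Over all IDs tested, 13.5% were called in BCC199 and 37.3% in BCC56535, beside 8.77% in HUT2365. The larger part of the other strains was thus largely built in and is a description.

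Called IDs of HUT2365 also differed from the other strains. Of the 346 risen, the day effect was higher than in BCC199 for 85 and lower for 10, and it was higher than in BCC56535 for 114 and lower for 17. Of the 400 fallen, it was lower than in BCC199 for 144 and higher for 8, and it was lower than in BCC56535 for 69 and higher for 25. Over all IDs tested, the difference from BCC199 was more positive in HUT2365 for 3.43% and more negative for 4.94%, and that from BCC56535 was more positive for 8.1% and more negative for 6.6%. The calls of HUT2365 enter these differences, so the counts are a description.

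The IDs with the day effect most raised above that of BCC56535 were acu05656_1 and acu04461_1. The ID acu04461_1, whose HUT2365 values are given above, went from 369 and 267 normalized reads to 119.8 and 215 in BCC56535, and from 902 and 964 to 2981 and 3497 in BCC199. HUT2365 began far below both other strains on day 3 and on day 6 lay between them. The difference of log2 changes from BCC56535 was 6.98 with a standard error of 0.69 (limma, adjusted p = 1.1e-05). The ID acu05656_1 had 325 and 340.5 normalized reads on day 3 and 1328 and 1110.4 on day 6 in HUT2365, while BCC56535 went from 28609.6 and 11608 to 165 and 718. HUT2365 was higher and BCC56535 lower on day 6, with a difference of log2 changes of 7.57 and a standard error of 0.97 (limma, adjusted p = 1.0e-04). BCC199 was lower as well, from 8882 and 7997 to 886 and 829.6. The change of this ID within HUT2365 had an adjusted p of 0.10 in limma.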

How the data were processed

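RNA of mycelium was depleted of ribosomal RNA, enriched for messenger RNA and sequenced as paired ends, per the labels' protocols. HISAT2 2.1.0, Picard and StringTie were used, per the submitters' processing notes. Their roles, the genome build, the annotation, the use of strand and the normalization were not given in the sources used here, so overlapping genes and close copies are uncertain. The signal deposited by the authors is a normalized read count per gene ID plus 1: with 1 subtracted, 100% of values were whole multiples (within 0.02 of a whole read) of 1 step per library, so reads could be recovered. Because of the added 1 no negative binomial count test was run, and voom weights on recovered reads were the alternative. The reference table (assembly Aspac1) matched 0 IDs, so no gene name or sequence is given.

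IDs were kept where 2 or more libraries had a deposited value of 10 or more (8509 of 8615). Log2(deposited value + 1), a scale that understates changes of low IDs, was fitted in limma 3.58.1 (R 4.3.3) as 12 group means over 24 libraries, with moderated variance and an intensity trend (12 residual degrees of freedom). Contrasts were two-sided, with Benjamini-Hochberg adjustment over all IDs and a threshold of 0.05. Named IDs were the 2 largest positive and 2 largest negative effects of each of the 4 tested contrasts (called, days not overlapping in at least 1 arm, a mean of at least 100 in the highest group) and, for the day effect, the 2 risen and 2 fallen IDs with the highest level. The comparison, lists and rules were chosen with earlier results of these data known. Medians per ID of a chi-square statistic between replicates were 29.5 on day 3 and 15.4 on day 6 beside 0.455 for sampling noise, so both pairs differed by more than read sampling. Alternatives changed the pseudocount, filter, scaling, weights, libraries fitted and replicate block, and left out each library.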

Additional observations from a re-analysis of the deposited data

Results flagged for a closer look

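The results given here are those in which the day effect of HUT2365 in wheat bran-soybean differed from that of another strain or of the other medium by a test of the difference itself in limma. Against BCC199 these were 712 IDs, against BCC56535 they were 1251 IDs, and against HUT2365 in glucose they were 68 IDs. Differences below are day effects of HUT2365 in wheat bran-soybean minus those of the other group, in log2 units, and their causes were not tested.

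Against BCC199, the named IDs were ones that HUT2365 held at or near 0 reads in wheat bran-soybean, so the difference was that of BCC199. It was 9.61 for acu07232_1, which had 1671 and 3058 normalized reads on day 3 and 2.19 and 0 on day 6 in BCC199, and 0 in all 4 HUT2365 libraries in wheat bran-soybean. It was 6.63 for acu07825_1, at 902 and 1336 and then 6.58 and 17.6 in BCC199. It was -7.92 for acu03520_1, at 4.13 and 0.935 and then 704 and 1356 in BCC199, and this ID had at most 2.99 in wheat bran-soybean but 1249 to 2062 in glucose in HUT2365. The call of acu03520_1 did not hold with voom weights on recovered reads (adjusted p = 0.18). It was -7.83 for acu07846_1, at 4.13 and 2.80 and then 1527 and 1454 in BCC199. Unlike acu03520_1, the other named IDs were at or near 0 in HUT2365 in glucose too. There acu07825_1 and acu07846_1 had 0 in all 4 libraries and acu07232_1 at most 0.790. Why HUT2365 had almost no reads of them in either medium was not tested. Over all 712 IDs, 11 had at most 3 reads in every HUT2365 library in wheat bran-soybean, so these 4 are not typical of the set.

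Against BCC56535, the difference was 7.57 for acu05656_1 and 6.98 for acu04461_1, whose values stand in the report. It was -9.08 for acu04733_1, which in HUT2365 had 1763 and 5131 on day 3 and 819.5 and 3674 on day 6, with the days overlapping and replicate B higher on both days, and in BCC56535 went from 0.935 and 5.06 to 2592 and 784. It was -8.24 for acu01254_1, which in HUT2365 held at most 3.53 in wheat bran-soybean and 1.86 in glucose. In BCC56535 this ID went from 7.48 and 16.2 to 2131 and 2394 in wheat bran-soybean. Against glucose, the difference was 6.47 for acu04792_1, 6.40 for acu02321_1, -4.68 for acu00168_3 and -2.98 for acu00135_3. For each of these 4 the change in glucose between the days was not called, and the difference of acu04792_1 had an adjusted p of 0.066 in limma without day 6 A of glucose.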

How the results depend on the processing

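Of the 746 IDs called between the days, 201 were called with weights per library and 0 with only the 4 libraries compared, without or with a replicate block (1397 and 1562 at an unadjusted p under 0.05). With a library left out the count ranged from 281 to 599, of which 256 to 417 were among the 746. The labels do not say whether replicate letters pair the samples. Differences of A and B on both days correlated at 0.068 across IDs, over 2 pairs, which are too few to decide it. A replicate block over all libraries gave 626 calls, with 567, 1191 and 55 for the differences from BCC199, BCC56535 and glucose. The difference from BCC199 ranged from 283 to 688 IDs with a library left out. The difference from BCC56535 was 790 with weights, 644 with only the libraries compared and 640 with a replicate block in these. The difference from glucose was 0 with a replicate block in only the libraries compared (1281 at an unadjusted p under 0.05) and 8 to 94 with a library left out. Equal totals raised the share of calls that were rises from 46.4% to 61.2% for the day effect, and the more positive share from 41.0% to 57.4% against BCC199 and from 58.8% to 71.7% against glucose. With a library left out, the list higher in wheat bran-soybean had 17 to 33 risen and 10 to 25 fallen IDs, and the lower list 4 to 10 and 12 to 48. The share of fallen IDs that were lower in BCC199 was then 47.8% to 59.0%, and that in BCC56535 73.6% to 84.5% (78.4% with quantile normalization), while 56.6% to 70.5% of the risen were higher in BCC56535. In glucose 48.6% to 65.1% of the risen were higher and 25.9% to 48.7% of the fallen lower. The causes were not tested. No named ID changed direction in any of these fits. The 2 libraries a day limit the precision, and an ID under a few reads could not show a change.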

Other observations

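Changed IDs were also counted along the ID numbers, whose order has no stated meaning in these sources. Where an ID had risen, the ID with the next number had also risen in 24 of 257 cases, or 9.34%, beside 3.51% over the 7161 pairs of consecutive numbers. After a fallen ID the next had fallen in 39 of 338 cases, or 11.5%, beside 4.64%. Moves in opposite directions were 8 fallen in the 257 cases after a risen ID, beside 4.64% fallen over all pairs. After a fallen ID, 10 of the 338 had risen, beside 3.51%. Neither count exceeded the share over all pairs. The 998 tested IDs that share a number with another ID, such as acu00168_3, held 71 risen and 53 fallen, or 12.4%, while 8.28% of the 7511 IDs alone on their number were called. Neighbouring numbers are not independent genes, and no test was made of this pattern.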
